A study of Mus musculus with 11 samples.

Results

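The glutathione and antioxidant defence genes are a list of 44 mouse genes for making and recycling glutathione, joining it to toxic compounds, and removing superoxide and peroxides. They were taken by gene symbol and not by any measured value. Of the 44, 41 had a row of values among the 16475 genes on the arrays. Gsta1, Gstp1 and Gpx4 had none under those symbols and are not analysed here. Expression was measured on Affymetrix arrays in whole kidneys of 11 lupus-prone mice before nephritis, none with proteinuria: 7 NZB/W mice aged 6 weeks and 4 NZW/BXSB mice aged 8 weeks. Each sample carries its own replicate number in the labels. NZB/W and NZW/BXSB are F1 crosses that develop lupus nephritis later in life. The study's methods describe NZB/W mice as female and NZW/BXSB mice as male, the males carrying the Yaa locus with its duplicated Tlr7. The mice were perfused with saline before the kidneys were taken. The strains also differed in sex and age, so that the parts of these in any difference cannot be told apart, and the labels name no batch.

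Glutathione is a small thiol that the cell makes from amino acids and keeps mostly in its reduced form. Transferases couple it to reactive compounds so that they can be exported, peroxidases spend it on peroxides, and glutathione reductase restores it. Many of these genes are switched on by the transcription factor NRF2, encoded by Nfe2l2, which KEAP1 marks for breakdown until oxidants or electrophiles stop it. NRF2 binds the antioxidant response element, and the proximal tubule of the kidney, which takes up and excretes drugs and metabolites, is rich in this system.

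The core of the antioxidant response element, TGACNNNGC read on either strand, was looked for in the RefSeq promoter windows (build GRCm38.p6), each running from 250 bases before to 50 bases after a gene's start. A window was found for 38 of the 44 genes, and 10 of these (26.3%) held the core, against 3781 of all 27025 genes with a window (14.0%). Among the genes described below as higher in NZB/W, 4 of 14 with a window held it, among those lower 4 of 10, and among those not called 2 of 11. The 8 cores of called genes are shown because genes with the same core differed in opposite directions on the common scale used for the values that follow. Each stretch reads 5′ to 3′ on the gene's own strand with the core in capitals. The first 4 genes below, from Mgst1 to Nfe2l2, were higher in NZB/W.
Mgst1 (chr6:138140445-138140505): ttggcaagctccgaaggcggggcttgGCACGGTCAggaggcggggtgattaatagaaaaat
Gstm7 (chr3:107931709-107931769, minus strand): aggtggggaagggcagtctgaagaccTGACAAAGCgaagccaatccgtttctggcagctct
Gsta3 (chr1:21240438-21240498): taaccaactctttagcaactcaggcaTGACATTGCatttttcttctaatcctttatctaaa
Nfe2l2 (chr2:75704869-75704913, minus strand): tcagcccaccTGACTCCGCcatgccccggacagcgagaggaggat
Txnrd1 (chr10:82859088-82859148): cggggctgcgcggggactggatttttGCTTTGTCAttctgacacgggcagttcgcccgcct
Prdx1 (chr4:116685440-116685500): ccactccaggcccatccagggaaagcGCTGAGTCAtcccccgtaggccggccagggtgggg
Sod1 (chr16:90220680-90220740): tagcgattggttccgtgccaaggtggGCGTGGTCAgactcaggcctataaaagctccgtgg
Srxn1 (chr2:152105542-152105570): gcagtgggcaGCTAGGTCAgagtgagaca
In Srxn1 the core lay 28 bases after the start of the gene, and in the other 7 it lay before it. A match of letters is not a binding site, and these arrays hold no measurement of NRF2 binding.

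The deposited values of NZB/W lay lower as a whole, although the methods describe joint normalization and batch correction of the arrays. Their median over the 14419 tested genes was 7.38 ± 0.01 on the log2 scale, against 8.08 ± 0.04 for NZW/BXSB (SD over 7 and 4 arrays), and the median difference of all tested genes was -0.69. All values below are log2 levels after quantile normalization of the 11 arrays, called the common scale, on which the median difference of all tested genes was -0.01. Differences are NZB/W minus NZW/BXSB, and a gene was called higher or lower at a limma adjusted p below 0.05 over all tested genes. Which of the scales is right is not known, and the difference as deposited is given beside each listed gene and, in the further lists, where its sign turned. Levels of different genes are not compared, since each depends on its own probes. In whole kidney, fewer cells of a type and less RNA per cell cannot be told apart. All measured markers of proximal tubule (6), thick ascending limb (2), distal convoluted tubule (2), collecting duct (3) and podocytes (3) were called above baseline in both strains. NZB/W replicate 2 stood apart in adrenal cortex markers, as described with Mgst2 below.

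On the common scale the glutathione transferases were mostly higher in NZB/W kidneys. The genes for making and reducing glutathione and for removing peroxides were mostly lower or not called on that scale. Of the 41 measured genes, 15 were higher (36.6%), against 33.3% of all tested genes, and 13 were lower (31.7%), against 36.1% of all tested genes. The other 13 did not pass the test. Taken as 1 list, the genes were therefore called about as often as other genes, and their median difference was 0.06. The direction differed by role. Of 19 measured transferases, 11 were higher, 1 was lower and 7 were not called, with a median difference of 0.35. Of the 22 other genes, 4 were higher, 12 were lower and 6 were not called, and their median was -0.32. This contrast between roles is a description without a test of its own, and it was drawn on the common scale. As deposited only 4 of the 41 genes were called higher, all of them transferases, and 33 were called lower. Most transferases had a negative difference there.

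Markers of kidney segments and of other cells also differed between the strains on the common scale. The mean of 6 proximal tubule markers was between 12.58 and 12.82 in NZB/W and between 12.36 and 12.44 in NZW/BXSB, with 4 of the 6 higher and 1 lower. That of 2 thick ascending limb markers was between 13.36 and 13.55 in NZB/W and between 13.09 and 13.28 in NZW/BXSB, and that of 2 distal convoluted tubule markers between 11.22 and 11.91 in NZB/W and between 10.82 and 11.01 in NZW/BXSB, with both genes higher in each pair. None of these means overlapped between strains. Of 3 podocyte markers 2 were higher and 1 lower, with means between 8.48 and 8.87 in NZB/W and between 8.32 and 8.39 in NZW/BXSB. Of 3 collecting duct markers 1 was higher and 1 lower. Their means overlapped, between 9.05 and 9.60 in NZB/W and between 9.35 and 9.56 in NZW/BXSB. Of 5 macrophage markers 3 were higher and none lower, with means between 8.14 and 8.83 in NZB/W and between 8.00 and 8.54 in NZW/BXSB. Of 5 liver markers 1 was higher and 3 were lower, with means between 7.93 and 8.36 in NZB/W and between 8.37 and 9.15 in NZW/BXSB. Of 4 fat markers 2 were higher and 1 lower, and of 2 lymphocyte markers 1 was higher. Of 3 red blood cell markers 2 were lower, and of 2 tested skeletal muscle markers 1 was lower. The part of these shifts in the differences of the transferases and the other listed genes was not tested.

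**Figure D1:**
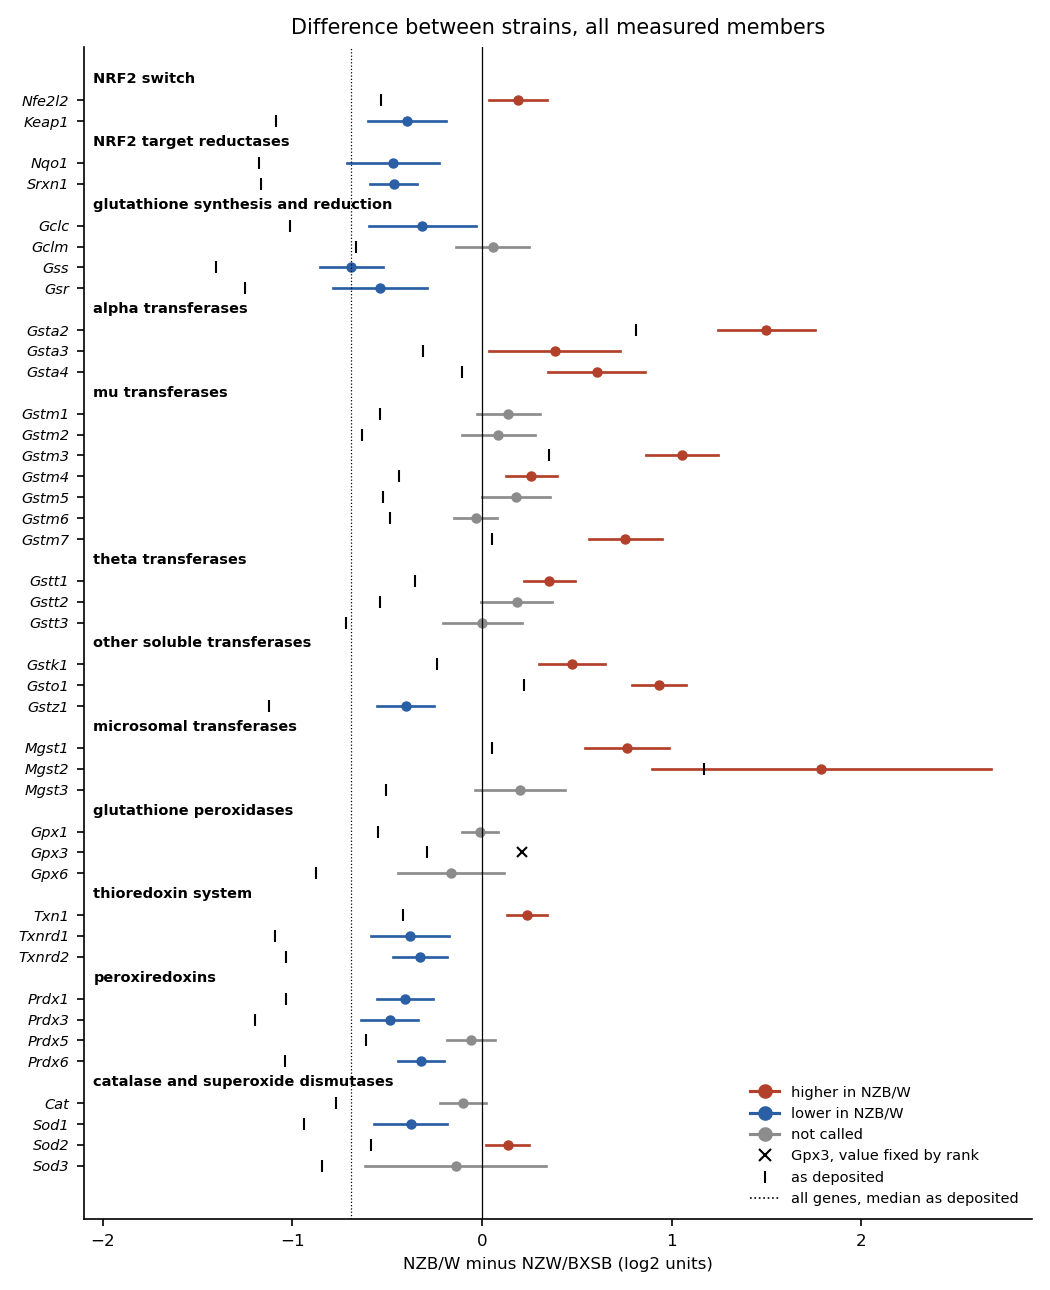
Difference in log2 expression, NZB/W (n = 7) minus NZW/BXSB (n = 4), for the 41 measured genes by role; points and lines are the common-scale estimate and its 95% confidence interval from limma, ticks are the difference as deposited, and the dotted line is the median of all tested genes as deposited (-0.69). Of the 19 transferases 11 lie right of 0 with a call and only Gstz1 lies left with one, while 12 of the 22 other genes lie left with a call.

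By the fold limits of the study's methods (adjusted p at most 0.001 with a fold of at least 1.4 or at most 0.7), 6 genes were higher (14.6%), against 14.3% of all tested genes, and 2 were lower (4.88%), against 13.6%. The study put these limits on another statistic, a q-value, and on nephritic against prenephritic mice. Here they were put on the limma adjusted p between strains. In 10 genes every NZB/W kidney lay above every NZW/BXSB kidney (24.4%), against 25.9% of all tested genes. In 11 genes every NZB/W kidney lay below (26.8%), against 28.8% of all tested genes. As deposited, 4 genes were called higher (9.76%, against 5.56% of all tested genes) and 33 lower (80.5%, against 84.0% of all). The 4 were Gsta2, Gstm3, Gsto1 and Mgst2. All 15 genes called higher on the common scale lay above the median shift of all genes as deposited, and all 13 called lower lay below it. Quantile normalization takes out most of that shift, so this was largely set in advance and gives the calls no further support. Of the 15, 9 had a negative difference as deposited.

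Alpha class transferases detoxify products of lipid peroxidation, and all 3 that were measured were higher in NZB/W on the common scale, although Gsta3 and Gsta4 turned negative as deposited. Gsta2, an alpha transferase that also reduces lipid hydroperoxides, ranged between 12.30 and 12.90 in NZB/W with a median of 12.63, and read 11.26, 11.19, 11.26 and 10.73 in NZW/BXSB replicates 1 to 4. The strains did not overlap, and the gap between them was wider than the range within either. Its difference was 1.50 ± 0.12 (SE, adjusted p = 1.17e-07), 2.83-fold, and 0.81 as deposited. Gsta4, which removes the lipid peroxidation product 4-hydroxynonenal, ranged between 9.65 and 10.36 in NZB/W with a median of 9.88, against 9.32, 9.36, 9.27 and 9.37 in NZW/BXSB. All 7 NZB/W kidneys were higher, replicate 2 the highest at 10.36. The difference was 0.60 ± 0.12 (SE, adjusted p = 0.000477), 1.52-fold, and -0.10 as deposited. Gsta3 was higher by 0.38 (adjusted p = 0.0462) with overlapping kidneys, and -0.31 as deposited. It no longer passed when any single kidney among NZB/W replicates 2, 3, 4, 6 and 7 or NZW/BXSB replicates 1, 3 and 4 was left out, with adjusted p between 0.0605 and 0.127. Gsta2 is a close copy of Gsta1, which had no row, and how far Gsta1 transcripts add to the Gsta2 signal was not tested.

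Mu class transferases lie side by side on chromosome 3, in the order Gstm5, Gstm7, Gstm6, Gstm3, Gstm2, Gstm1 and Gstm4, and they differed between strains by very unequal amounts. Gstm3 ranged between 8.16 and 8.66 in NZB/W with a median of 8.51, and read 7.35, 7.58, 7.25 and 7.41 in NZW/BXSB. Gstm7 ranged between 8.42 and 8.94 in NZB/W with a median of 8.71, and read 8.01, 8.07, 7.78 and 7.89 in NZW/BXSB. In both genes all NZB/W kidneys lay above all NZW/BXSB kidneys. The difference was 1.06 ± 0.09 for Gstm3 (SE, adjusted p = 1.78e-07), 2.08-fold, and 0.35 as deposited. That of Gstm7 was 0.76 ± 0.09 (SE, adjusted p = 5.03e-06), 1.69-fold, and 0.05 as deposited, where its call was lost (adjusted p = 0.552).

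The other mu genes stood close to 0. Gstm4 was higher by 0.26 (adjusted p = 0.0021), with overlapping kidneys and -0.44 as deposited. Gstm5, Gstm1 and Gstm2 differed by 0.18, 0.14 and 0.09 and did not pass the test (as deposited -0.52, -0.54 and -0.63, all called lower), although Gstm5 did without NZB/W replicate 4 (adjusted p = 0.022). Gstm6 averaged 5.03 in NZB/W, where it was not called above baseline, and 5.06 in NZW/BXSB, where it was, just above the background level of 5.03 there, and no fold is given. Its difference was -0.49 as deposited (called lower) and 0.20 with median centring (adjusted p = 0.00466), so its sign turned with the scaling. Of the 10 measured neighbours of the cluster, 5 on each side, 2 were higher and 4 lower, with differences between -0.71 and 0.34. The mu genes share much of their sequence, and how far their probes share signal was not tested.

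**Figure D2:**
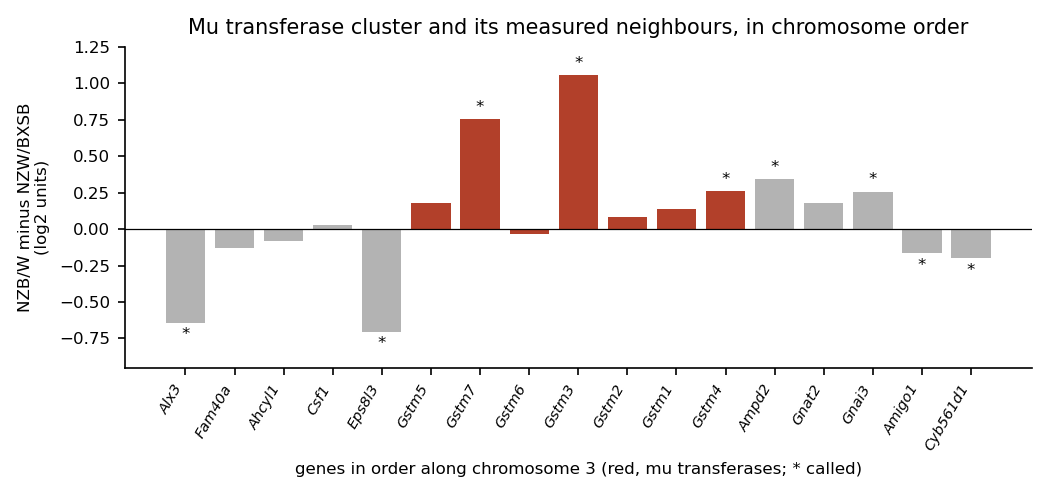
Difference in log2 expression on the common scale, NZB/W minus NZW/BXSB, for the 7 mu transferases (red) and the 5 measured genes on each side (grey), in their order along chromosome 3, with asterisks for genes called by limma. Gstm7 (0.76) and Gstm3 (1.06) stand above the other mu genes (-0.03 to 0.26) and above all 10 neighbours.

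The alpha genes Gsta4 and Gsta2 neighbour each other on chromosome 9, where 4 of 10 flanking genes were higher and 2 lower, between -0.88 and 0.74. Theta transferases, which remove small halogenated compounds, lie together on chromosome 10, and of the 3 measured only Gstt1 was called. Gstt1 averaged 10.92 ± 0.11 in NZB/W and 10.57 ± 0.05 in NZW/BXSB (SD over 7 and 4 kidneys), without overlap, a difference of 0.35 (adjusted p = 0.000191) that was -0.35 as deposited. Gstt2 differed by 0.18 (adjusted p = 0.0782) and passed the test without NZB/W replicate 3 or NZW/BXSB replicate 3 (adjusted p = 0.0388 and 0.0448), and Gstt3 differed by 0.00 (adjusted p = 0.985). As deposited these differed by -0.54 and -0.72, both called lower.

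Gsto1 and Gstk1 were higher in NZB/W and Gstz1 was lower, all 3 without overlap between strains. Gsto1, an omega class enzyme that reduces dehydroascorbate and exchanges thiols on proteins, ranged between 10.55 and 10.80 in NZB/W with a median of 10.63, and read 9.74, 9.68, 9.62 and 9.90 in NZW/BXSB. The gap between the strains was wider than the whole range within either. The difference was 0.93 ± 0.07 (SE, adjusted p = 4.13e-08), 1.91-fold, and 0.22 as deposited. Gstk1, the kappa transferase of mitochondria and peroxisomes, averaged 10.48 ± 0.17 in NZB/W and 10.01 ± 0.04 in NZW/BXSB, a difference of 0.47 (adjusted p = 0.000153) that was -0.24 as deposited. Gstz1, which acts in tyrosine breakdown as maleylacetoacetate isomerase, averaged 10.64 ± 0.13 in NZB/W and 11.04 ± 0.08 in NZW/BXSB, a difference of -0.40 (adjusted p = 0.000162) and -1.12 as deposited.

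Microsomal transferases sit in membranes and are unrelated in sequence to the soluble ones. Mgst1, which also reduces lipid hydroperoxides, ranged between 11.34 and 11.96 in NZB/W with a median of 11.78, and read 10.90, 10.95, 11.01 and 10.93 in NZW/BXSB. The 4 NZW/BXSB kidneys lay close together and below all 7 NZB/W kidneys. The difference was 0.76 ± 0.10 (SE, adjusted p = 1.74e-05), 1.70-fold, but 0.05 as deposited, where the call was lost (adjusted p = 0.655). Mgst3, a transferase and peroxidase, differed by 0.20 (adjusted p = 0.117) and by -0.51 as deposited, where it was called lower, and on the common scale it passed the test without NZB/W replicate 4 (adjusted p = 0.0168).

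**Figure D3:**
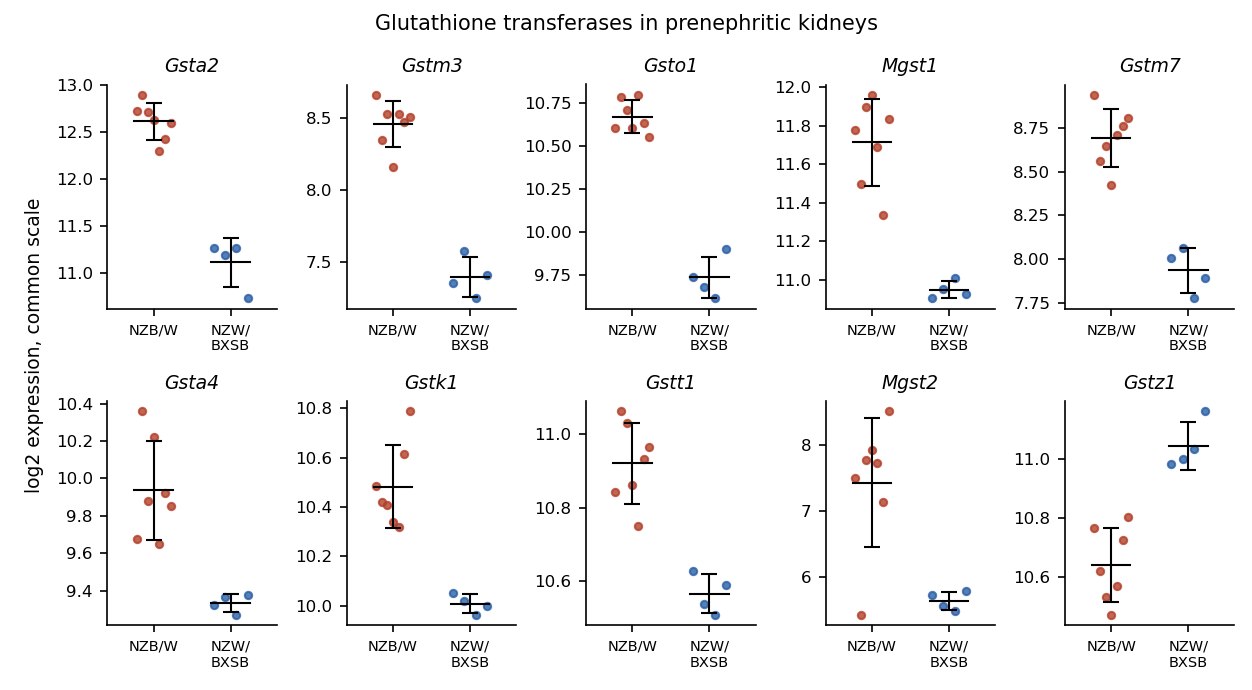
Log2 expression on the common scale of 10 transferases in each kidney, NZB/W (7, red) left and NZW/BXSB (4, blue) right in each panel; bars are mean ± SD and each panel has its own axis. All kidneys are apart in Gsta2, Gstm3, Gsto1, Mgst1, Gstm7, Gsta4, Gstk1, Gstt1 and Gstz1, while Mgst2 overlaps through NZB/W replicate 2 (5.42).

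Mgst2, which can form the lipid mediator leukotriene C4, had the largest difference of the 41 genes and also the widest spread. It is described kidney by kidney although it fell outside the rule for named genes, a choice made after its values were seen. In NZB/W replicates 1 to 7 it read 7.50, 5.42, 7.77, 7.92, 7.73, 7.13 and 8.51, against 5.72, 5.56, 5.49 and 5.78 in NZW/BXSB. Replicate 2 lay below all NZW/BXSB kidneys and the other 6 lay above them. The reading of replicate 2 was at the background level of NZB/W (5.42), and the NZW/BXSB readings lay above theirs (5.03). The difference was 1.79 ± 0.42 (SE, adjusted p = 0.0017), 3.46-fold, and 1.17 as deposited, and without NZB/W replicate 2 it was 2.12 (adjusted p = 8.5e-07). Its SD in NZB/W was 0.98, a value reached by 0.125% of all tested genes.

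The adrenal gland lies against the kidney, and NZB/W replicate 2 was also the kidney with the least adrenal cortex signal. The mean of 5 adrenal cortex markers (Cyp11a1, Cyp11b1, Cyp11b2, Cyp21a1 and Star, enzymes and a transport protein of steroid synthesis) was 5.25 in NZB/W replicate 2, between 8.38 and 9.88 in the other 6 NZB/W kidneys, and between 7.12 and 8.17 in NZW/BXSB. Between the strains 1 of the 5, Cyp11b2, was called higher and none lower. Cyp11a1, the first enzyme of steroid synthesis, read 4.31 in NZB/W replicate 2, between 8.25 and 10.14 in the other NZB/W kidneys, and between 7.13 and 8.56 in NZW/BXSB. Within NZB/W the kidney with the highest Mgst2 (replicate 7) had the highest marker mean, and the kidneys with the lowest Mgst2 (replicates 2 and 6) had the lowest. Replicates 1, 3, 4 and 5 did not keep this order. Of these, replicate 4 had the highest Mgst2 (7.92) with the lowest marker mean (8.83). Replicate 1 had the lowest Mgst2 (7.50) with a marker mean of 9.07. In NZW/BXSB Mgst2 stayed between 5.49 and 5.78 although the marker means were well above that of NZB/W replicate 2. The part of adrenal tissue in the Mgst2 difference was not tested.

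**Figure D4:**
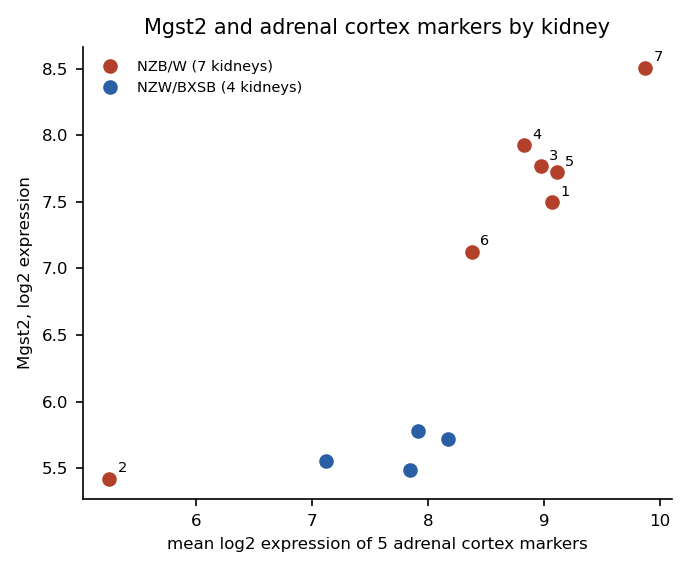
Mgst2 log2 expression against the mean log2 expression of 5 adrenal cortex markers in each kidney on the common scale, NZB/W in red with replicate numbers and NZW/BXSB in blue. NZB/W replicate 2 lies lowest on both axes (5.25 and 5.42), the other NZB/W kidneys lie to the upper right, and the NZW/BXSB kidneys hold marker means of 7.12 to 8.17 with Mgst2 between 5.49 and 5.78.

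Glutathione is made by glutamate-cysteine ligase, of which Gclc is the catalytic and Gclm the modifier subunit, and then by glutathione synthetase, Gss. Glutathione reductase, Gsr, recycles its oxidised form. In NZB/W kidneys Gss, Gsr and Gclc were lower and Gclm was not called. Gss ranged between 10.42 and 10.90 in NZB/W with a median of 10.62, and read 11.24, 11.30, 11.35 and 11.39 in NZW/BXSB. Gsr ranged between 9.50 and 10.16 in NZB/W with a median of 9.91, and read 10.52, 10.48, 10.42 and 10.37 in NZW/BXSB. Neither gene overlapped between strains. The difference was -0.69 ± 0.08 for Gss (SE, adjusted p = 2.91e-06), 1.61-fold higher in NZW/BXSB, and -1.40 as deposited. That of Gsr was -0.54 ± 0.12 (SE, adjusted p = 0.000949), 1.45-fold higher in NZW/BXSB, and -1.25 as deposited.

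Gclc ranged between 11.13 and 11.85 in NZB/W with a median of 11.62, and read 11.93, 12.18, 11.66 and 11.68 in NZW/BXSB. The strains overlapped, and NZW/BXSB replicate 2 was the highest of all. The difference was -0.31 ± 0.13 (SE, adjusted p = 0.045) and -1.01 as deposited, and on the common scale leaving out any single kidney among NZB/W replicates 1, 2, 4 and 6 or NZW/BXSB replicates 1 and 2 ended the call, with adjusted p between 0.0522 and 0.178. Gclm ranged between 11.33 and 11.87 in NZB/W with a median of 11.70, and read 11.70, 11.72, 11.62 and 11.55 in NZW/BXSB. Its difference of 0.06 ± 0.09 (SE, adjusted p = 0.597) had a 95% confidence interval from -0.14 to 0.25, and as deposited it was -0.67 (adjusted p = 8.76e-05).

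The switch of the pathway showed a small and unsteady difference in Nfe2l2 and a clearer one in Keap1. Nfe2l2 ranged between 10.16 and 10.52 in NZB/W with a median of 10.33, and read 10.11, 10.12, 10.07 and 10.28 in NZW/BXSB. The strains overlapped through NZW/BXSB replicate 4. The difference was 0.19 ± 0.07 (SE, adjusted p = 0.0293), and -0.53 as deposited, and the call ended on leaving out any single kidney among NZB/W replicates 3 and 4 or NZW/BXSB replicates 1, 2 and 3, with adjusted p between 0.0514 and 0.0907. Keap1, the adaptor that hands NRF2 to a ubiquitin ligase, ranged between 7.35 and 7.98 in NZB/W with a median of 7.78, and read 8.28, 8.15, 8.08 and 8.09 in NZW/BXSB. All NZB/W kidneys were lower, with a difference of -0.39 ± 0.10 (SE, adjusted p = 0.0022) and -1.09 as deposited.

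Nqo1, a quinone reductase that is a widely used readout of NRF2, and Srxn1, sulfiredoxin, which repairs overoxidised peroxiredoxins, were both lower in NZB/W. Nqo1 ranged between 8.13 and 8.85 in NZB/W with a median of 8.32, and read 8.99, 8.94, 8.92 and 8.72 in NZW/BXSB. Only NZB/W replicate 2, at 8.85, reached into the NZW/BXSB range. Its difference was -0.47 ± 0.11 (SE, adjusted p = 0.0022) and -1.17 as deposited. Srxn1 averaged 7.54 ± 0.09 in NZB/W and 8.01 ± 0.06 in NZW/BXSB, without overlap, a difference of -0.47 (adjusted p = 6.65e-06) and -1.16 as deposited.

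Glutathione peroxidases reduce peroxides at the expense of glutathione, and none of the 3 measured gave a steady difference. Gpx3, the peroxidase that the proximal tubule secretes into plasma, was the brightest gene on all 7 NZB/W arrays and ranked 2 on all 4 NZW/BXSB arrays. Quantile normalization gives every gene of a rank the same value, so Gpx3 read 14.61 in all NZB/W kidneys and 14.39 in all NZW/BXSB kidneys, and its call as higher, 1 of the 15, comes from a rank with no spread and measures no error. Without it 14 genes were higher. As deposited it averaged 14.44 ± 0.06 in NZB/W and 14.73 ± 0.03 in NZW/BXSB (SD over 7 and 4 kidneys). The difference as deposited was thus negative, at -0.29 (limma adjusted p = 7.15e-05). With median centring in place of quantile normalization it was 0.40 (adjusted p = 8e-06), and with cyclic loess 0.24 (adjusted p = 0.00587). Its sign was therefore the same under these scalings as on the common scale, and turned only as deposited.

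Gpx1, the main peroxidase of the cytosol, ranged between 13.81 and 13.89 in NZB/W with a median of 13.88, and read 13.91, 13.85, 13.83 and 13.88 in NZW/BXSB. The strains overlapped throughout, and the difference was -0.01 ± 0.04 (SE, adjusted p = 0.831) with a 95% confidence interval from -0.10 to 0.08. It was called in opposite directions under other scalings, at 0.14 with median centring (adjusted p = 0.0411) and -0.55 as deposited (adjusted p = 1.35e-07). Gpx1 also lay among the brightest genes, at ranks 10 to 15 of every array, where ranks leave little room for spread. Gpx6, a peroxidase of the olfactory epithelium in rodents, differed by -0.16 (adjusted p = 0.274), and by -0.88 as deposited, where it was called lower.

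Thioredoxin and its reductases reduce protein disulfides and feed the peroxiredoxins. Txn1, cytosolic thioredoxin, averaged 12.97 ± 0.06 in NZB/W and 12.73 ± 0.06 in NZW/BXSB, without overlap, a difference of 0.24 (adjusted p = 0.00069) that was -0.42 as deposited. Its reductases went the other way. Txnrd1, the cytosolic enzyme, ranged between 8.61 and 9.05 in NZB/W with a median of 8.75, and read 9.20, 9.09, 9.11 and 9.31 in NZW/BXSB, a difference of -0.38 ± 0.10 (SE, adjusted p = 0.0028) without overlap and -1.09 as deposited. Txnrd2, the mitochondrial enzyme, averaged 8.04 ± 0.13 in NZB/W and 8.36 ± 0.03 in NZW/BXSB, a difference of -0.33 (adjusted p = 0.000625), also without overlap, and -1.04 as deposited.

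Of 4 peroxiredoxins, 3 were lower in NZB/W without overlap, as were 28.8% of all tested genes, and Prdx5 was not called. Prdx3, the mitochondrial form, averaged 11.07 ± 0.13 in NZB/W and 11.55 ± 0.04 in NZW/BXSB, a difference of -0.49 (adjusted p = 2.9e-05) and -1.20 as deposited. Prdx1, an abundant cytosolic form, differed by -0.41 (adjusted p = 0.000129) and Prdx6, which also has phospholipase activity, by -0.32 (adjusted p = 0.000157). As deposited they differed by -1.03 and -1.04. Prdx5 differed by -0.06 (adjusted p = 0.392) and by -0.61 as deposited, where it was called lower.

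**Figure D5:**
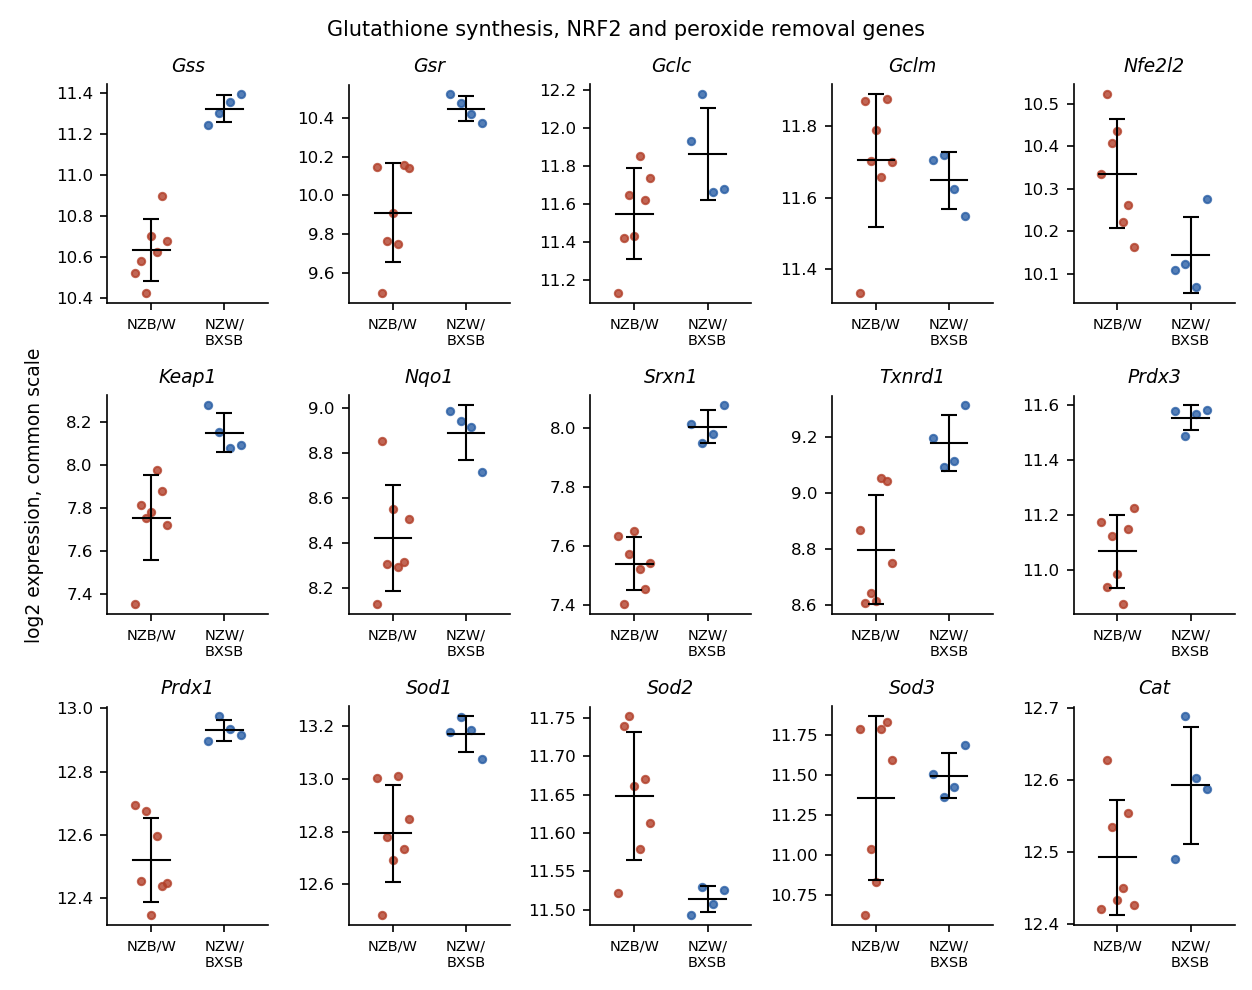
Log2 expression on the common scale of 15 genes for glutathione synthesis, NRF2 and superoxide and peroxide removal in each kidney, NZB/W (7, red) left and NZW/BXSB (4, blue) right in each panel; bars are mean ± SD and each panel has its own axis. Gss, Gsr, Keap1, Srxn1, Txnrd1, Prdx3, Prdx1 and Sod1 are lower in NZB/W without overlap, and Sod3 spreads over 10.63 to 11.83 in NZB/W.

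Superoxide dismutases turn superoxide into hydrogen peroxide. Of the 3 forms, Sod1 was lower, Sod2 was higher by an unsteady call, and Sod3 was not called. Sod1, of the cytosol, ranged between 12.48 and 13.01 in NZB/W with a median of 12.78, and read 13.18, 13.24, 13.18 and 13.07 in NZW/BXSB. All NZB/W kidneys were lower, replicate 2 the lowest, with a difference of -0.38 ± 0.09 (SE, adjusted p = 0.0019) and -0.94 as deposited. Sod2, of the mitochondrial matrix, ranged between 11.52 and 11.75 in NZB/W with a median of 11.66, and read 11.49, 11.53, 11.51 and 11.53 in NZW/BXSB. Only NZB/W replicate 1 lay within the NZW/BXSB range. The difference was 0.13 ± 0.05 (SE, adjusted p = 0.0349), and -0.58 as deposited. Sod2 no longer passed when any single kidney among NZB/W replicates 2, 3 and 6 or the 4 of NZW/BXSB was left out, with adjusted p between 0.0549 and 0.0822.

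Sod3, the extracellular form, had a wide spread among NZB/W kidneys. It read 11.79, 10.63, 11.04, 10.83, 11.79, 11.83 and 11.59 in NZB/W replicates 1 to 7, against 11.51, 11.36, 11.43 and 11.69 in NZW/BXSB. NZB/W replicates 2, 3 and 4 lay below all NZW/BXSB kidneys, and replicates 1, 5 and 6 lay above them. Its SD of 0.51 in NZB/W was reached by 0.749% of all tested genes, where the median SD was 0.12, and the difference of -0.14 ± 0.22 (SE, adjusted p = 0.59) had a 95% confidence interval from -0.62 to 0.34, and as deposited it was -0.85 (adjusted p = 0.000858). Cat, the catalase of peroxisomes, ranged between 12.42 and 12.63 in NZB/W with a median of 12.45, and read 12.49, 12.69, 12.60 and 12.59 in NZW/BXSB. Its kidneys overlapped, and the difference was -0.10 ± 0.06 (SE, adjusted p = 0.131), reaching -0.15 (adjusted p = 0.0276) only with cyclic loess among the scalings of the arrays to each other. As deposited Cat differed by -0.77 (adjusted p = 2.52e-07).

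The genes around the pathway went in both directions, as all tested genes did. Of 31 further genes of glutathione turnover tested, 12 were higher (38.7%) and 10 lower (32.3%), near the 33.3% and 36.1% of all tested genes, with a median of 0.05. Ggt6, a gamma-glutamyltransferase, averaged 8.93 ± 0.23 in NZB/W and 7.55 ± 0.11 in NZW/BXSB, 2.59-fold (adjusted p = 1.03e-07). Chac1, which degrades glutathione inside the cell, was higher by 0.91 (adjusted p = 6.61e-07) and Esd, which splits S-formylglutathione, by 0.66 (adjusted p = 2.13e-07), although Esd was -0.03 as deposited. Cdo1, which diverts cysteine to taurine and sulfate, differed by -0.82 (adjusted p = 7.55e-08).

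Of 12 genes that regulate NRF2, 5 were higher (41.7%) and 4 lower (33.3%), against 33.3% and 36.1% of all tested genes (median difference 0.10). Bach1, a repressor that competes with NRF2 for the antioxidant response element, averaged 8.04 ± 0.30 in NZB/W and 7.02 ± 0.20 in NZW/BXSB, 2.03-fold (adjusted p = 3.04e-05). Of the ligase that takes NRF2 from KEAP1, the scaffold Cul3 differed by -0.66 (adjusted p = 2.96e-07) and its partner Rbx1 by 0.31 (adjusted p = 0.000191), and Rbx1 turned to -0.40 as deposited. Nfe2l3 averaged 4.87 in NZB/W, below the background level of 5.42, and 5.15 in NZW/BXSB, so its call as lower rests on a level at background and no fold is given.

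Of 19 known NRF2 target genes outside the 44 that were tested, 8 were higher (42.1%) and 6 lower (31.6%), against 33.3% and 36.1% of all tested genes (median -0.03), and they included the largest difference of all 6 lists. Abcc3, an exporter of conjugates, averaged 9.53 ± 0.39 in NZB/W and 6.84 ± 0.23 in NZW/BXSB, 6.45-fold (adjusted p = 2.41e-08). Cbr1, a carbonyl reductase, averaged 10.44 ± 0.07 in NZB/W and 8.24 ± 0.05 in NZW/BXSB, 4.61-fold (adjusted p = 1.32e-12). Both were also higher as deposited, by 1.99 and 1.50. Hmox1, inducible heme oxygenase, averaged 7.05 ± 0.24 in NZB/W and 8.28 ± 0.16 in NZW/BXSB, 2.34-fold higher in NZW/BXSB (adjusted p = 6.35e-07), and Me1, an NADPH-producing malic enzyme, differed by -0.83 (adjusted p = 1.81e-06).

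Among 16 sources of superoxide and hydrogen peroxide, 6 were higher (37.5%) and 6 lower (37.5%), against 33.3% and 36.1% of all tested genes (median difference 0.04). Maoa, monoamine oxidase A, was higher by 1.29 (adjusted p = 1.23e-09) and Hao2, a peroxisomal hydroxyacid oxidase, by 0.92 (adjusted p = 2.53e-08).

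In the thioredoxin, peroxiredoxin and methionine sulfoxide repair list, 7 of 16 were higher (43.8%) and 3 lower (18.8%), against 33.3% and 36.1% of all tested genes (median difference 0.08). Prdx4, the peroxiredoxin of the endoplasmic reticulum, was higher by 0.86 (adjusted p = 7.43e-07) and Prdx2, a cytosolic form, by 0.52 (adjusted p = 3.29e-06), although Prdx2 was -0.18 as deposited. Txnl1, a thioredoxin-like protein of the proteasome, differed by -0.73 (adjusted p = 1.39e-06), and Msrb1, a selenoprotein that repairs oxidised methionine, by -0.67 (adjusted p = 6.93e-07). Of 8 genes that supply selenium to selenoproteins, 2 were higher (25%) and 3 lower (37.5%), against the same shares of all tested genes (median difference -0.01). Lrp2, the tubular receptor that takes up selenoprotein P, was higher by 0.48 (adjusted p = 3.6e-06) and -0.16 as deposited. Trit1, a transfer RNA modifier, differed by -0.87 (adjusted p = 8.01e-08), Selenop, selenoprotein P itself, by -0.32 (adjusted p = 0.000161, a call lost with median centring), and Sephs2, which makes the selenium donor, by -0.27 (adjusted p = 0.0045).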

How the data were processed

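Total RNA of whole kidneys was hybridised to Affymetrix arrays. The authors normalized the arrays with RMA and deposited log2 expression values per Entrez gene (16539 rows, 64 of them control probe sets). They also deposited a Yes or No call per gene and strain (another kind of value) for expression above negative controls. The paper's supplement names the Affymetrix Brain Array annotation for its genes, and the genome build behind it is not stated there. The 14419 genes with a Yes in either strain went into limma 3.58.1 (lmFit, eBayes, R 4.3.3) and Benjamini-Hochberg adjustment, after quantile normalization of the 16475 Entrez gene rows over the 11 arrays. Quantile normalization forces equal distributions on all arrays, and would hide a real shift shared by most genes. Only the limma fit was tested on simulated data. These values needed no normalization, so the quantile normalization was not covered. The number of arrays limits the precision. The p-values set each difference against the spread between mice of the same strain, and do not separate strain from sex and age. Summaries used Python 3.11.15 and pandas 2.3.3, and the figures matplotlib 3.10.9.

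The listed genes, roles, further lists and tests were chosen with earlier results of these data known. Values per kidney were given for up to 9 listed genes in each direction past the fold limits without overlap and for a set of fixed genes, and up to 4 genes of smallest p were named per further list, some of which are not reported here. Near background means a strain mean below the 95th percentile of genes not above baseline (5.42 in NZB/W, 5.03 in NZW/BXSB). Promoter windows came from RefSeq. Alternatives were the deposited scale, median centring, cyclic loess, other filters and priors, the replicate block, and leaving out kidneys.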

Additional observations from a re-analysis of the deposited data

Results flagged for a closer look

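Of 80 groups of kidneys examined (40 genes in each strain), 4 held a kidney far from the others, measured as the gap to its nearest neighbour over the whole range of the group. Chance gives about 1 in 20 such groups. In NZB/W replicate 1 both Keap1 and Gclm were lowest. Keap1 read 7.35 there and 7.72 in the next kidney (gap share 0.594). Gclm read 11.33 there and 11.66 in the next (gap share 0.598). NZW/BXSB replicate 4 was lowest in Gsta2, at 10.73 with the next at 11.19 (gap share 0.869), and NZW/BXSB replicate 2 was lowest in Prdx3, at 11.49 with the next at 11.57 (gap share 0.842). Gsta2, Prdx3 and Keap1 stayed called without these kidneys, and Gclm stayed without a call.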

How the results depend on the processing

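As deposited, 4 of the 41 genes were higher and 33 lower, against 15 and 13 on the common scale, and these genes became negative: Nfe2l2 (-0.53), Gclm (-0.67), Gsta3 (-0.31), Gsta4 (-0.10), Gstm1 (-0.54), Gstm2 (-0.63), Gstm4 (-0.44), Gstm5 (-0.52), Gstt1 (-0.35), Gstt2 (-0.54), Gstt3 (-0.72), Gstk1 (-0.24), Mgst3 (-0.51), Gpx3 (-0.29), Txn1 (-0.42), Sod2 (-0.58), and of the genes named from the further lists Esd (-0.0314), Prdx2 (-0.18), Rbx1 (-0.40) and Lrp2 (-0.16). The fold limits left 6 higher and 2 lower, and 27.9% of all tested genes called, against 69.4%, with the fold and the p limit both stricter. Median centring turned Gstm6 (0.20), Gstt3 (-0.0316), Gpx1 (0.14) and Prdx5 (0.0734), and cyclic loess Gclm (-0.0137), Gstt3 (-0.0034) and Gpx1 (0.0149); the cause was not tested. These 5 were not called on the common scale, but Gstm6 and Gpx1 were with median centring (adjusted p = 0.00466 and 0.0411). Median centring and cyclic loess also took the calls of Nfe2l2 and Sod2, and median centring those of Gclc and Gsta3.

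Leaving out 1 kidney at a time gave 12 to 15 genes higher and 12 to 13 lower, with 64.6% to 69.5% of all tested genes called. Gstt3 then ranged between -0.0555 and 0.0514 and Gpx1 between -0.0227 and 0.0035. Without NZB/W replicates 6 and 7 together, 13 were higher and 13 lower, and Gstt3 was -0.0221. The correlations of same-numbered kidneys were -0.0804, 0.275, -0.0023 and -0.128, within the range of differently numbered ones (-0.283 to 0.393). So few pairs cannot exclude pairing by replicate number. The study's methods describe unpaired tests, and the main fit used no pairing. With the replicate block 14 genes were higher and 13 lower, Sod2 lost its call (adjusted p = 0.0772), and Gstt3 was -0.0333. Depth on arrays is signal over background, which limits Gstm6, Nfe2l3 and the Mgst2 reading of NZB/W replicate 2.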
